A study of Mus musculus with 4 samples.

Results

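The genes of the major histocompatibility complex (MHC) and of antigen presentation were followed in ingWAT, the inguinal white fat depot under the skin, of cold-exposed mice. They were taken from the expression table by symbol. A gene was a member if its symbol began with *H2-*, the mouse prefix for MHC genes, or if it was *B2m*, *Cd74*, *Ciita*, *Nlrc5*, *Tap1*, *Tap2*, *Tapbp*, *Psmb8*, *Psmb9*, *Psmb10*, *Cd1d1* or *Ctss*. This gave 49 of the 19030 genes listed, of which 37 carried the prefix and 12 were named. The class I side held 35 genes, the class II side 13, and *H2-Ke6*, which lies in the MHC region but presents no antigen, belonged to neither.

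Ctrl mice carried *Oct3* (*Slc22a3*, a norepinephrine transporter) flanked by loxP sites. cKO mice carried the same floxed alleles and an Adiponectin-Cre transgene, so that the deletion was driven in adipocytes rather than in the immune, vascular or other cells of the depot. All mice were of the C57BL/6 strain, and the labels give an age of 3 months and housing at 4°C. There were 2 libraries of each genotype, and values are given in the order of their numbers. Whether each library came from a separate mouse is not stated in the labels, so the p-values measure the spread between these libraries.

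MHC class I molecules present peptides made in the cytosol to CD8 T cells. The immunoproteasome cuts the peptides, the Tap transporter carries them into the endoplasmic reticulum, and a heavy chain binds them together with the light chain B2m. MHC class II molecules present peptides from ingested proteins to CD4 T cells. Their chains are escorted by the invariant chain (Cd74), which Ctss degrades in endosomes, and H2-DM then exchanges the remaining fragment for peptide, while H2-O restrains H2-DM. Nearly all nucleated cells express class I, whereas class II is mainly found on B cells, dendritic cells and macrophages. In a dissected depot these immune cells are sampled together with the adipocytes, and adipocytes themselves have been described to express class II. Whether lymph node tissue was dissected with the depot is not stated in the sources used here. In bulk tissue, fewer cells of a type and less RNA per cell cannot be told apart.

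The class I and class II promoters are known for a shared module in which an X2 box, a target of Creb-family factors, stands upstream of a Y box with the letters ATTGG, the target of NF-Y. Ciita at class II and Nlrc5 at class I are recruited to this module. The following windows, from the RefSeq promoter table on GRCm38.p6, are shown because they carry these letters in front of the genes whose levels are described next. Each is written 5′ to 3′ on the strand of the gene, and capitals mark the X2-like letters (TGACG or TGATG) and the Y-box letters.
H2-Aa: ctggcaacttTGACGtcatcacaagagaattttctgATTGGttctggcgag
H2-Eb1: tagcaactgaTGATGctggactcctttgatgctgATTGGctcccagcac
H2-DMb1: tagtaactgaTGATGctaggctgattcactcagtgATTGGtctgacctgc
H2-DMb2: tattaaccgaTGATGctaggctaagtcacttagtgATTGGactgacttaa
H2-Ob: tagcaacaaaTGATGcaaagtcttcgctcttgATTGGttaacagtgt
B2m: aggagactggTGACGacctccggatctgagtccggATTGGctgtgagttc
H2-K1: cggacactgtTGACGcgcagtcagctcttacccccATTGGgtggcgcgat
H2-D1: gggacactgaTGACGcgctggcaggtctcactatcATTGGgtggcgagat
H2-Q7: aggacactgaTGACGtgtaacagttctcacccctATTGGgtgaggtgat

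These windows lie on chromosome 17 at chr17:34287857-34287907 (minus strand, *H2-Aa*), chr17:34305774-34305822 (plus, *H2-Eb1*), chr17:34153095-34153144 (plus, *H2-DMb1*), chr17:34145124-34145173 (plus, *H2-DMb2*), chr17:34238816-34238862 (plus, *H2-Ob*), chr17:34000349-34000398 (minus, *H2-K1*), chr17:35262983-35263032 (plus, *H2-D1*) and chr17:35439081-35439129 (plus, *H2-Q7*), and at chr2:122147599-122147648 (plus) for *B2m*. All lie within 250 bases before to 50 bases after a start site of their gene in the promoter table. For *H2-DMb2* and *H2-K1* that start site lies inside the outer limits given for the gene further on, so these windows lie within the gene. A search of both strands for TGACG or TGATG followed after 10 to 25 bases by ATTGG found such an arrangement in 6 of the 9 class II members with a promoter in the table (66.7%) and in 7 of 22 class I members (31.8%), against 1.67% of the 27025 genes with a promoter. The letters ATTGG alone were in 41.1% of all genes with a promoter. On the class I side the arrangement was in front of *H2-M3*, *H2-Q4* and *H2-Q6* as well as the genes shown, and on the class II side also of *H2-Eb2*. It was not in the windows of *Psmb8*, *Psmb9*, *Psmb10*, *Tap1*, *Tapbp*, *Ctss*, *H2-DMa*, *H2-Oa* or 10 non-classical heavy chain genes, which says only that these letters are not in those bases. Of the 49 members 17 were not matched to a promoter, among them *Cd74*, *H2-Ab1*, *Ciita*, *Cd1d1*, *Nlrc5*, *Tap2* and *H2-T24*.

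*Slc22a3* itself stood at 17.0 and 17.7 FPKM in Ctrl and at 9.07 and 9.50 in cKO, a log2 fold change of -0.83 ± 0.07 (limma, Benjamini-Hochberg adjusted p = 0.000439). FPKM are fragments of a gene scaled to transcript length and to the reads mapped in a library, so levels of different genes can be compared. The depth was estimated at 17450000 to 18500000 reads per library, at which 1 read on a transcript of 1500 bases is worth 0.0369 to 0.0392 FPKM. The genotypes were compared by limma on log2(FPKM + 1), a scale that understates the change of low genes, over the 12658 genes with a mean of at least 1 FPKM. The term called is used for an adjusted p under 0.05 over all of these genes. Of all genes tested, 25.8% were called in either direction, 12.0% higher and 13.8% lower in cKO, and their median log2 fold change was -0.01. Log2 fold changes of cKO against Ctrl are given ± their standard error. The tissue was fat, with *Adipoq* at 1527 and 1485 FPKM in Ctrl and at 966 and 1046 in cKO, but 7 skeletal muscle genes summed to 2074 and 1379 FPKM in Ctrl, against 8.21 and 6.36 FPKM in cKO, and the part of this difference in the results was not tested. Of the 49 members, 39 passed the filter on low values, 26 of class I, 12 of class II and *H2-Ke6*.

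In cKO ingWAT, 6 of the 12 class II members tested were called higher and 0 lower by limma. In order of their log2 fold change these were *H2-DMb2*, *Ctss*, *H2-Oa*, *H2-Ob*, *H2-Ab1* and *H2-DMa*, so that peptide editing, its restraint, the protease and a peptide-binding chain were all represented. The share called higher was 50.0%, against 12.0% of all genes tested, of which 13.8% were called lower. In all 12 both cKO libraries lay above both Ctrl libraries, which held for 31.9% of all genes tested. All 12 log2 fold changes were above 0, as were 48.8% of those of all genes tested, and their median was 0.27. Under quantile normalization *H2-Aa* fell on the other side at -0.050. The count of class II members called higher was 2 without the Ctrl 1 library, 3 without Ctrl 2, 8 without cKO 1 and 4 without cKO 2. With each library left out, fewer of all genes tested were called in either direction, also without cKO 1, where the class II count rose. The direction of each call and its size are shown in the plot of log2 fold changes by class.

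**Figure D1:**
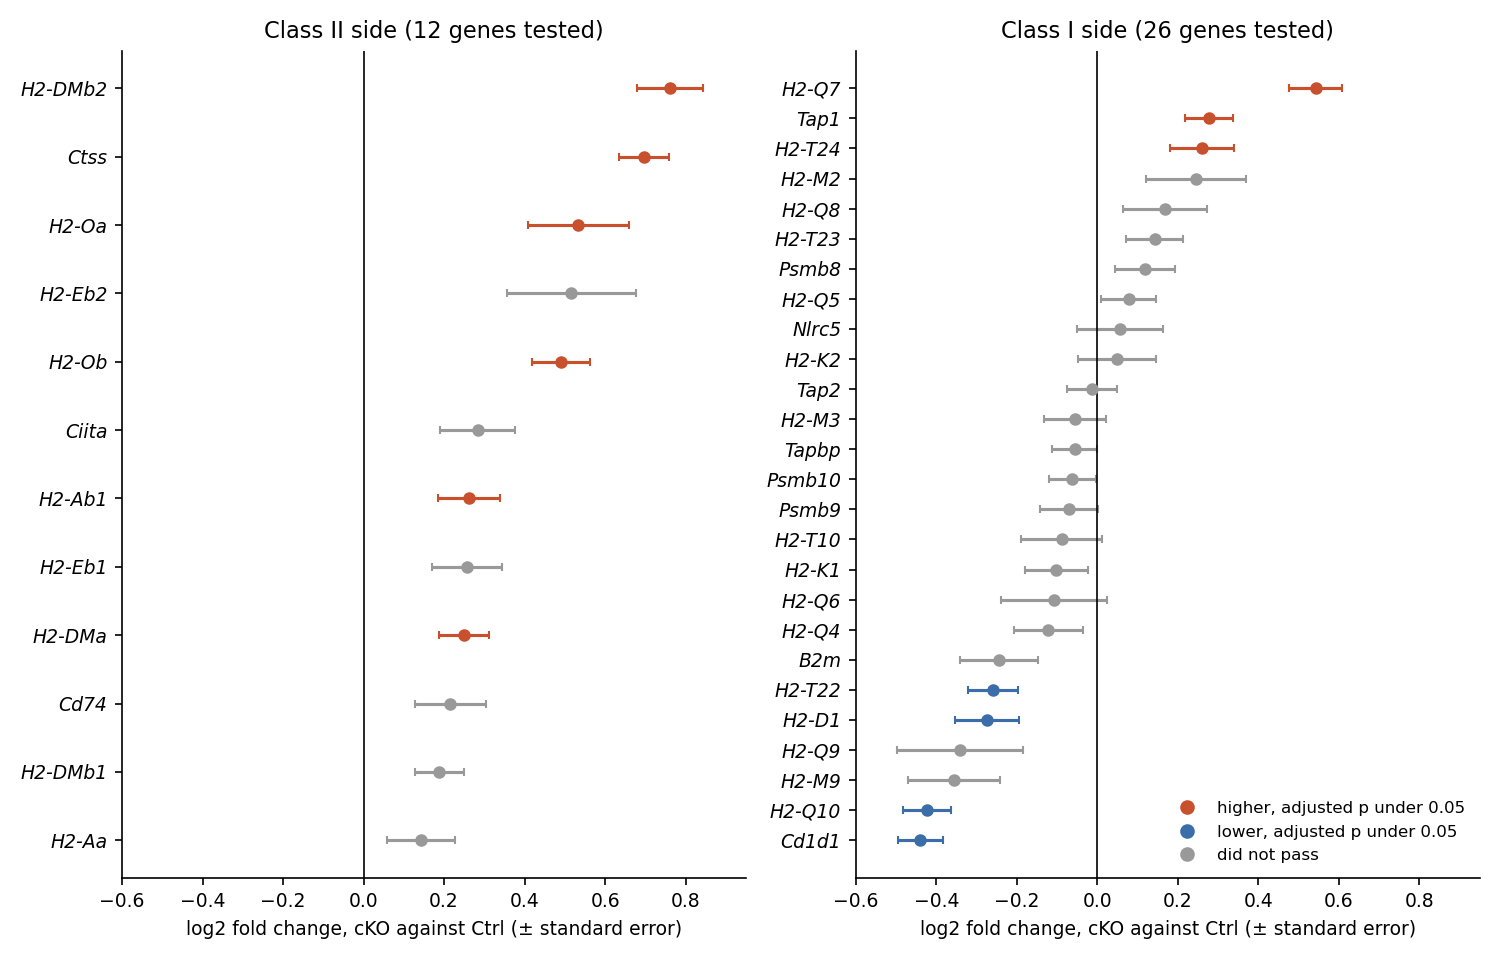
Log2 fold change between genotypes, cKO minus Ctrl in log2(FPKM + 1) (horizontal axis) for the 12 class II and 26 class I members tested, each point with its standard error from limma. The class II points all lie to the right of 0, from 0.14 for *H2-Aa* to 0.76 for *H2-DMb2* (under quantile normalization *H2-Aa* was at -0.050), while the class I points spread from -0.44 for *Cd1d1* to 0.54 for *H2-Q7*.

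*H2-Aa*, *H2-Ab1* and *H2-Eb1*, which encode peptide-binding chains, were the most abundant class II members after *Cd74*. *H2-Aa*, the alpha chain of the A molecule (chr17:34282744-34287823, mm10), stood at 541 and 522 FPKM in Ctrl and at 547 and 631 in cKO. *H2-Ab1*, its beta chain (chr17:34263227-34269418), stood at 437 and 409.5 FPKM in Ctrl and at 483 and 534 in cKO. *H2-Eb1*, the beta chain of the E molecule (chr17:34305867-34316674), stood at 259 and 248 FPKM in Ctrl and at 279 and 329.7 in cKO. Of these, *H2-Ab1* alone was called, with a log2 fold change of 0.26 ± 0.08 (limma, Benjamini-Hochberg adjusted p = 0.0444). For *H2-Eb1* the log2 fold change was nearly as large at 0.26, with a standard error of 0.09 and an adjusted p of 0.0712 by limma. It passed with a mean of at least 5 FPKM, under median-of-ratios scaling and without cKO 1, and without cKO 2 it was 0.14. For *H2-Aa* the log2 fold change was 0.14, and 0.04 without cKO 2, and the lower cKO library lay only just above the higher Ctrl library.

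The call of *H2-Ab1* was lost without Ctrl 1, Ctrl 2 or cKO 2, with no filter on low values and with no trend in the eBayes step, and under quantile normalization, where its log2 fold change was 0.02. *H2-Eb2*, a second E beta gene with a low level, had 3.85 and 3.35 FPKM in Ctrl and 4.53 and 6.80 in cKO, a log2 fold change of 0.52 with an adjusted p of 0.0538 by limma, which passed without cKO 1 and under median-of-ratios scaling and quantile normalization. Its cKO libraries differed from each other by more than the nearer of them differed from Ctrl. The disabled E alpha gene *H2-Ea-ps* was listed at 0.06 FPKM in Ctrl 1 and at 0 in the other libraries. C57BL/6 mice are known to make no E alpha chain and so no surface E molecule.

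*Cd74*, the invariant chain, was the most abundant class II member, with 1212 and 1164 FPKM in Ctrl and 1299.6 and 1465 in cKO. Both cKO values lay above both Ctrl values, but the log2 fold change of 0.22 ± 0.09 did not pass, with an adjusted p of 0.119 by limma. Set against the chains it escorts, *Cd74* showed no difference between genotypes larger than the spread. Its ratio to the summed FPKM of the A and E chains was 0.976 and 0.984 in Ctrl and 0.990 and 0.975 in cKO, and the genotypes overlapped.

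*Ctss*, the cysteine protease that trims the invariant chain, had one of the clearest differences of the group. It lies outside the MHC at chr3:95526786-95556405. Its level was 99.6 and 92.2 FPKM in Ctrl and 154 and 157 in cKO, so that the groups stood far apart and the cKO libraries were close to each other. The mean was 1.63-fold higher in cKO, with a log2 fold change of 0.70 ± 0.06 (limma, Benjamini-Hochberg adjusted p = 0.000616). This call held under each of the 11 alternatives run. *Ctsl*, a protease with a related role in other cells, moved the other way, from 102 and 98.6 FPKM to 79.5 and 79.0. The ratio of *Ctss* to *Ctsl* was 0.974 and 0.935 in Ctrl and 1.94 and 1.99 in cKO.

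**Figure D2:**
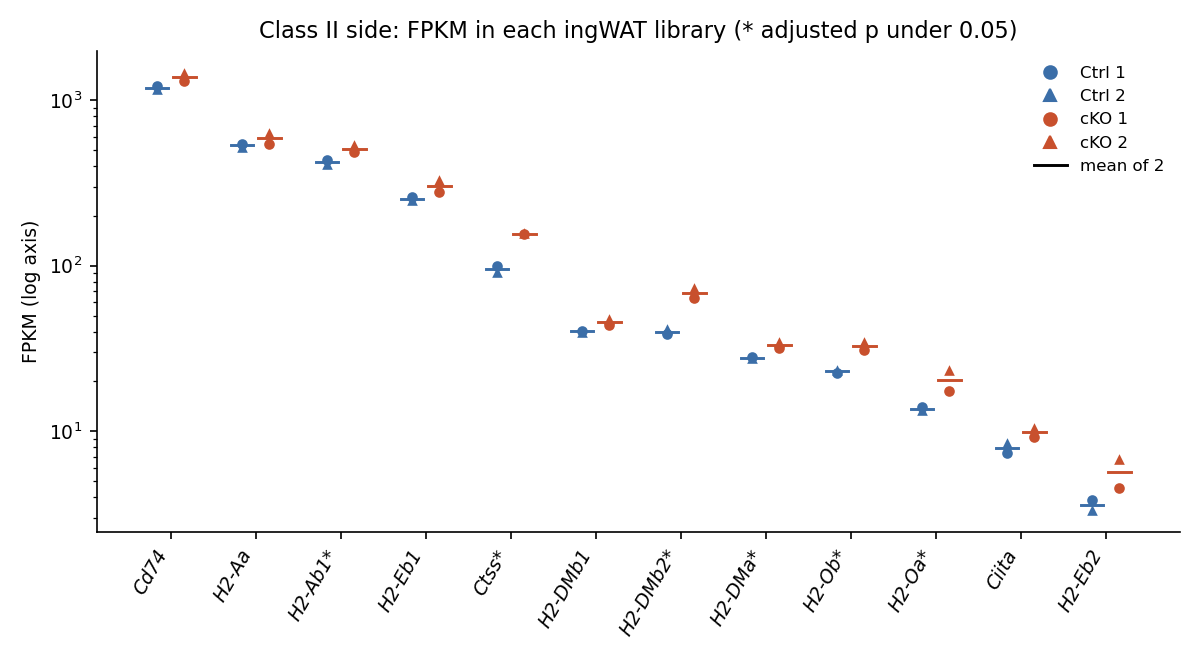
FPKM (log axis) of the 12 class II members tested in each of the 4 ingWAT libraries, with the mean of 2 libraries as a bar. For every gene the 2 cKO points lie above the 2 Ctrl points, and the means differ by the largest fold for *H2-DMb2*, which goes from a mean of 39.9 to a mean of 68.6 FPKM.

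H2-DM is built from an alpha chain (*H2-DMa*) and a beta chain that mice encode in neighbouring copies (*H2-DMb1* and *H2-DMb2*). *H2-DMb2* (chr17:34143229-34151553) stood at 38.5 and 41.4 FPKM in Ctrl and at 63.5 and 73.6 in cKO. *H2-DMb1* (chr17:34153191-34160229) stood at 40.6 and 39.7 FPKM in Ctrl and at 44.1 and 47.7 in cKO. *H2-DMa* (chr17:34119693-34139101) stood at 28.1 and 27.5 FPKM in Ctrl and at 32.0 and 34.5 in cKO. The copies of the beta chain were thus level with each other in Ctrl and apart in cKO.

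*H2-DMb2* rose with a log2 fold change of 0.76 ± 0.08 (limma, Benjamini-Hochberg adjusted p = 0.0012), the largest of all members tested, and kept its call under the 11 alternatives. *H2-DMa* rose by 0.25 (adjusted p = 0.0258 by limma), a call lost without Ctrl 1, Ctrl 2 or cKO 2, with no filter and with no eBayes trend. *H2-DMb1*, at 0.19, did not pass (adjusted p = 0.0632 by limma), but passed with a mean of at least 5 FPKM, under median-of-ratios scaling and under quantile normalization. Within a library, the ratio of *H2-DMb2* to *H2-DMb1* was 0.948 and 1.04 in Ctrl and 1.44 and 1.54 in cKO. The exact two-sided permutation test of 2 against 2 libraries gave p = 0.333, the smallest it can give. Reads can be exchanged between these copies, since 22.7% of the 50-base stretches of *H2-DMb1* transcripts also occur in *H2-DMb2*. Their sum, which is less sensitive to such an exchange, was 79.1 and 81.1 FPKM in Ctrl and 107.6 and 121 in cKO.

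H2-O, the restraint on H2-DM, is known from B cells, thymic epithelium and some dendritic cells. *H2-Oa* (chr17:34092379-34095234) stood at 13.9 and 13.5 FPKM in Ctrl and at 17.5 and 23.6 in cKO. *H2-Ob* (chr17:34238905-34245908) stood at 22.4 and 23.5 FPKM in Ctrl and at 30.8 and 34.6 in cKO. Both genes were called higher, and in both the cKO 2 library was the highest. The log2 fold change was 0.53 ± 0.13 for *H2-Oa* (limma, Benjamini-Hochberg adjusted p = 0.0209) and 0.49 ± 0.07 for *H2-Ob* (adjusted p = 0.00351). Without cKO 2 the log2 fold change of *H2-Oa* was 0.33, and its call was lost without Ctrl 1 or Ctrl 2 and with no filter, while that of *H2-Ob* was lost without Ctrl 1 (adjusted p = 0.0632 by limma). The ratio of summed H2-O to summed H2-DM was 0.339 and 0.341 in Ctrl and 0.346 and 0.373 in cKO.

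*Ciita*, the co-activator without which class II is hardly transcribed, lies on chromosome 16 and had low levels of 7.38 and 8.46 FPKM in Ctrl and 9.23 and 10.5 in cKO. Its log2 fold change of 0.28 ± 0.09 did not pass, with an adjusted p of 0.0633 by limma, but it passed with a mean of at least 5 FPKM, under median-of-ratios scaling and under quantile normalization. Summed over the chains, H2-DM, H2-O and *Cd74*, class II came to 2597 and 2494 FPKM in Ctrl and to 2800.3 and 3181 in cKO, a log2 ratio of 0.23 (exact two-sided permutation test, p = 0.333, the smallest possible). Without cKO 2 this ratio was 0.14. Among the cKO libraries, cKO 2 was above cKO 1 for all 12 class II members tested, and for 63.2% of all genes tested.

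On the class I side genes were called in both directions. Of the 26 class I members tested, 4 were called lower (*Cd1d1*, *H2-Q10*, *H2-D1* and *H2-T22*) and 3 higher (*H2-Q7*, *Tap1* and *H2-T24*) by limma, shares of 15.4% and 11.5% against 13.8% and 12.0% of all genes tested. Both cKO libraries lay above both Ctrl libraries for 5 members and below them for 7, where 31.9% and 34.6% of all genes tested did so, and for the other 14 the genotypes overlapped. The median log2 fold change was -0.06, and without cKO 1 it was 0.020. The count of class I members called was 7, and it was 2 without Ctrl 1, 3 without Ctrl 2 and 4 without cKO 1.

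The molecules that carry most class I to the cell surface were among the most abundant transcripts. *B2m*, the light chain of every class I molecule (chr2:122147687-122153082), stood at 1818 and 1779 FPKM in Ctrl and at 1409 and 1636 in cKO. *H2-D1* (chr17:35263094-35267497), a classical heavy chain, stood at 1124 and 1043 FPKM in Ctrl and at 869 and 922.5 in cKO. *H2-K1* (chr17:33996012-34000619), the other classical heavy chain of this strain, stood at 917 and 863 FPKM in Ctrl and at 796 and 864 in cKO. For *B2m* and *H2-D1* the cKO libraries lay below the Ctrl libraries, and for *H2-K1* they overlapped.

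*H2-D1* was called lower with a log2 fold change of -0.27 ± 0.08 (limma, Benjamini-Hochberg adjusted p = 0.0426), a call that was lost when any 1 of the 4 libraries was left out, under median-of-ratios scaling, with no filter and with no eBayes trend. *B2m*, at -0.24 ± 0.10, did not pass (adjusted p = 0.111 by limma), but passed without cKO 2 and under quantile normalization. For *H2-K1* the log2 fold change was -0.10 (adjusted p = 0.385 by limma), and under quantile normalization it passed at -0.22. The ratio of *H2-K1* to *H2-D1* was 0.816 and 0.828 in Ctrl and 0.916 and 0.936 in cKO. In transcripts, 12.8% of the 50-base stretches of *H2-D1* and 9.63% of those of *H2-K1* also occur in other genes, so part of their reads could be assigned otherwise. *H2-K2*, annotated as a transcribed pseudogene beside *H2-K1*, had between 7.40 and 8.83 FPKM, and its genotypes overlapped. *H2-Q5*, *H2-T10* and *H2-Bl* were annotated likewise, and all are in the sum that follows. The 26 *H2-* heavy chain genes of class I summed to 2696 and 2542 FPKM in Ctrl and to 2242 and 2424 in cKO, a log2 ratio of -0.17 (exact two-sided permutation test, p = 0.333), which was -0.11 without cKO 1. The ratio of *B2m* to this sum overlapped between the genotypes, at 0.674 and 0.700 in Ctrl and 0.628 and 0.675 in cKO.

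**Figure D3:**
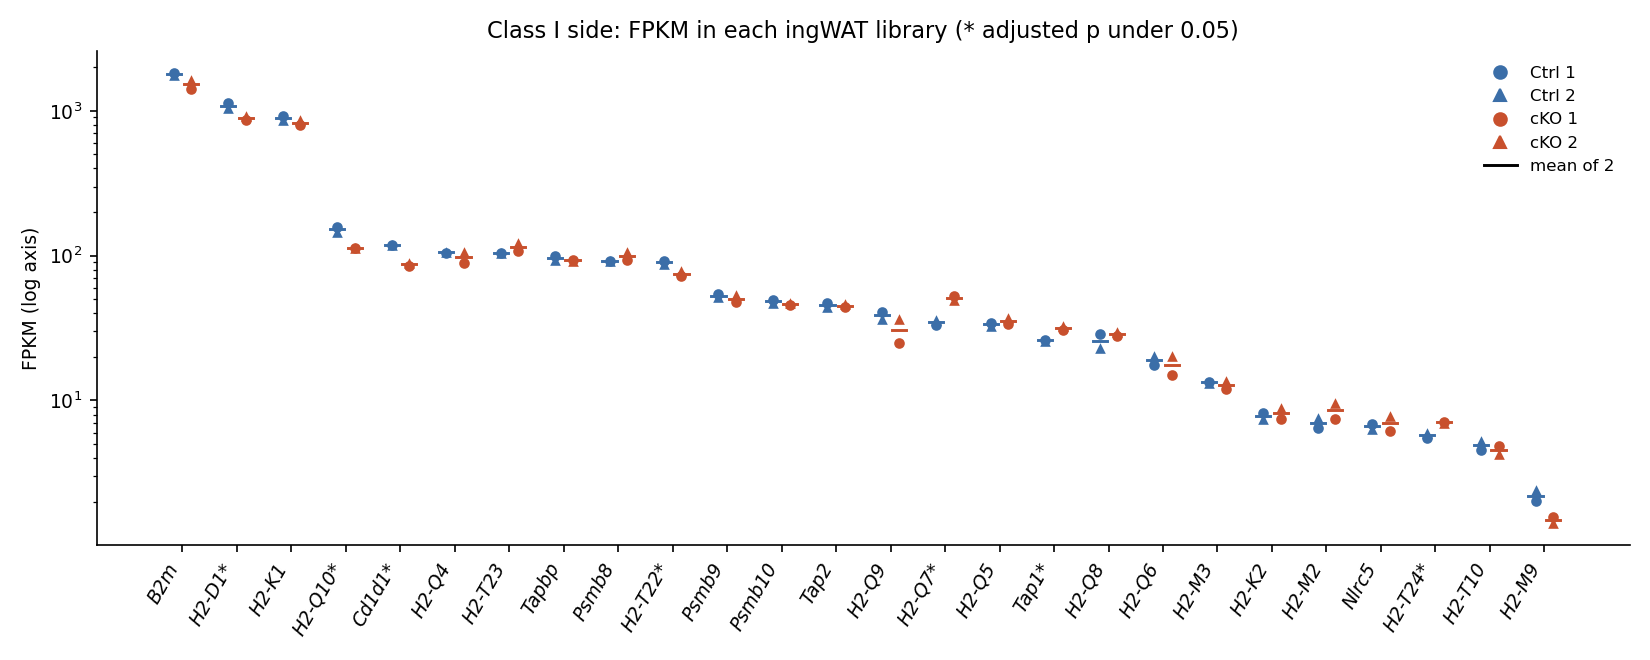
FPKM (log axis) of the 26 class I members tested in each of the 4 ingWAT libraries, with the mean of 2 libraries as a bar, ordered by the Ctrl mean. *B2m*, *H2-D1* and *H2-K1* stand at 796 FPKM or more in every library, and all others at 157 or less.

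Among the non-classical heavy chains of the Q region, *H2-Q10* and *H2-Q7* were called in opposite directions. *H2-Q10*, which encodes a secreted class I molecule known from liver (chr17:35470089-35474563), stood at 157 and 147 FPKM in Ctrl and at 113 and 112.8 in cKO, with no overlap and cKO libraries that were nearly equal. *H2-Q7*, which encodes a Qa-2 antigen (chr17:35439140-35443773), stood at 33.2 and 36.1 FPKM in Ctrl and at 52.5 and 49.3 in cKO. *H2-Q10* fell by 0.42 on the log2 scale (standard error 0.06, Benjamini-Hochberg adjusted p = 0.00298 by limma). *H2-Q7* rose by 0.54 ± 0.07 (adjusted p = 0.0018 by limma), the largest rise on the class I side, and its call held under the 11 alternatives, while that of *H2-Q10* was lost without Ctrl 1 (adjusted p = 0.0524 by limma).

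The values of single Q genes are uncertain, since 26.4% of the 50-base stretches of *H2-Q7* transcripts and 19.0% of those of *H2-Q10* also occur in transcripts of other genes. Among the transcripts compared, each of these genes shared most with the other. No transcript named *H2-Q8* or *H2-Q9* was in the set compared, so stretches shared with those genes were not counted. *H2-Q9* had 40.9 and 36.7 FPKM in Ctrl and 25.1 and 36.7 in cKO, so that cKO 1 stood well below the rest, and without cKO 2 it passed. *H2-Q8* had 28.8 and 22.9 FPKM in Ctrl and 28.1 and 29.9 in cKO, and *H2-Q6* had 17.6 and 20.3 in Ctrl and 15.1 and 20.2 in cKO. *H2-Q6*, *H2-Q8* and *H2-Q9* had overlapping genotypes, and their sum with *H2-Q7* was 120.4 and 116 in Ctrl and 120.8 and 136 in cKO. *H2-Q4*, at 88.7 to 106 FPKM, and *H2-Q5*, at 32.7 to 37.3 FPKM, overlapped too. The 9 *H2-Q* genes listed summed to 418 and 402 FPKM in Ctrl and to 357 and 393 in cKO.

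In the T and M regions, *H2-T22* (chr17:36037128-36042742), whose product is a ligand of some gamma delta T cells, stood at 91.9 and 87.9 FPKM in Ctrl and at 72.1 and 77.9 in cKO. It was called lower with a log2 fold change of -0.26 ± 0.06 (limma, Benjamini-Hochberg adjusted p = 0.0229), a call lost without Ctrl 1, Ctrl 2 or cKO 1, with no filter and with no eBayes trend. Its near copy *H2-T10*, which shares 32.9% of its 50-base stretches, mostly with *H2-T22*, was at 4.27 to 5.28 FPKM, and the sum of both was 96.4 and 93.2 in Ctrl and 76.9 and 82.2 in cKO. *H2-T24*, at 5.48 and 5.99 FPKM in Ctrl and 7.12 and 7.0 in cKO, was called higher by a narrow margin (log2 fold change 0.26, adjusted p = 0.0493 by limma), and the call was lost when any 1 of the 4 libraries was left out, with no filter and with no eBayes trend. *H2-T23*, which encodes Qa-1, the ligand of the inhibitory receptor NKG2A, had 103.8 and 104.3 FPKM in Ctrl and 108 and 122 in cKO and did not pass (adjusted p = 0.19 by limma). *H2-M3*, which presents formylated peptides, stayed between 12.0 and 13.6 FPKM, and *H2-M2* between 6.49 and 9.67. *H2-M9* had 2.01 and 2.39 FPKM in Ctrl and 1.56 and 1.43 in cKO, with an adjusted p of 0.0594 by limma, and passed with no eBayes trend.

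*Cd1d1* (chr3:86995834-87012358), which presents lipids to natural killer T cells and is known to be expressed by adipocytes, had the largest fall of all members tested. It stood at 118.6 and 119.4 FPKM in Ctrl and at 85.4 and 89.5 in cKO. The libraries of each genotype were close to each other and the genotypes were well apart. The log2 fold change was -0.44 ± 0.06 (limma, Benjamini-Hochberg adjusted p = 0.00201), and the call held under the 11 alternatives. *Cd1d2*, with which *Cd1d1* shares 19.1% of its 50-base stretches, was listed at 0.09 to 0.34 FPKM. Of 6 adipocyte markers, *Adipoq* and *Lep* were called lower, with log2 fold changes of -0.58 and -1.40 (adjusted p = 0.00275 and 9.48e-05 by limma). That was 33.3% of the list, against 13.8% of all genes tested. The other 4 (*Plin1*, *Cidec*, *Lipe* and *Pnpla2*) were between -0.07 and 0.07 and were not called, and the median of the list was -0.046. Its summed FPKM was 5115 and 4948 in Ctrl and 4592 and 4488 in cKO, and the part of these markers in the result for *Cd1d1* was not tested.

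Of the 7 members tested that make and load class I peptides or drive their transcription, *Tap1* was the one called, from 26.3 and 25.6 FPKM in Ctrl to 30.8 and 32.7 in cKO, a log2 fold change of 0.28 ± 0.06 (limma, Benjamini-Hochberg adjusted p = 0.0156), lost without Ctrl 1, Ctrl 2 or cKO 2. *Tap2*, the other subunit of the peptide transporter, had 47.0 and 44.2 FPKM in Ctrl and 43.9 and 46.5 in cKO. The ratio of *Tap1* to *Tap2* was 0.560 and 0.580 in Ctrl and 0.701 and 0.702 in cKO. *Tapbp*, the tapasin that bridges Tap and the heavy chain, stood at 92.1 to 98.8 FPKM, and *Nlrc5*, the class I co-activator, at 6.18 to 7.75 FPKM with overlapping genotypes.

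The immunoproteasome replaces the catalytic subunits Psmb5, Psmb6 and Psmb7 of the constitutive proteasome by Psmb8, Psmb9 and Psmb10, in that order. *Psmb8* had 91.6 and 92.0 FPKM in Ctrl and 93.2 and 106.8 in cKO, *Psmb9* stood at 47.5 to 54.3 FPKM and *Psmb10* at 45.5 to 49.8 FPKM, and none of these was called by limma or had an unadjusted p under 0.05. *Psmb5* rose from 141 and 138 FPKM to 201 and 183 (log2 fold change 0.46, adjusted p = 0.00317 by limma). The ratio of summed immunoproteasome to summed constitutive subunits was 0.460 and 0.446 in Ctrl and 0.350 and 0.425 in cKO, a log2 ratio of -0.23 (exact two-sided permutation test, p = 0.333, the smallest possible). It was -0.09 without cKO 1, the library that stood lowest.

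**Figure D4:**
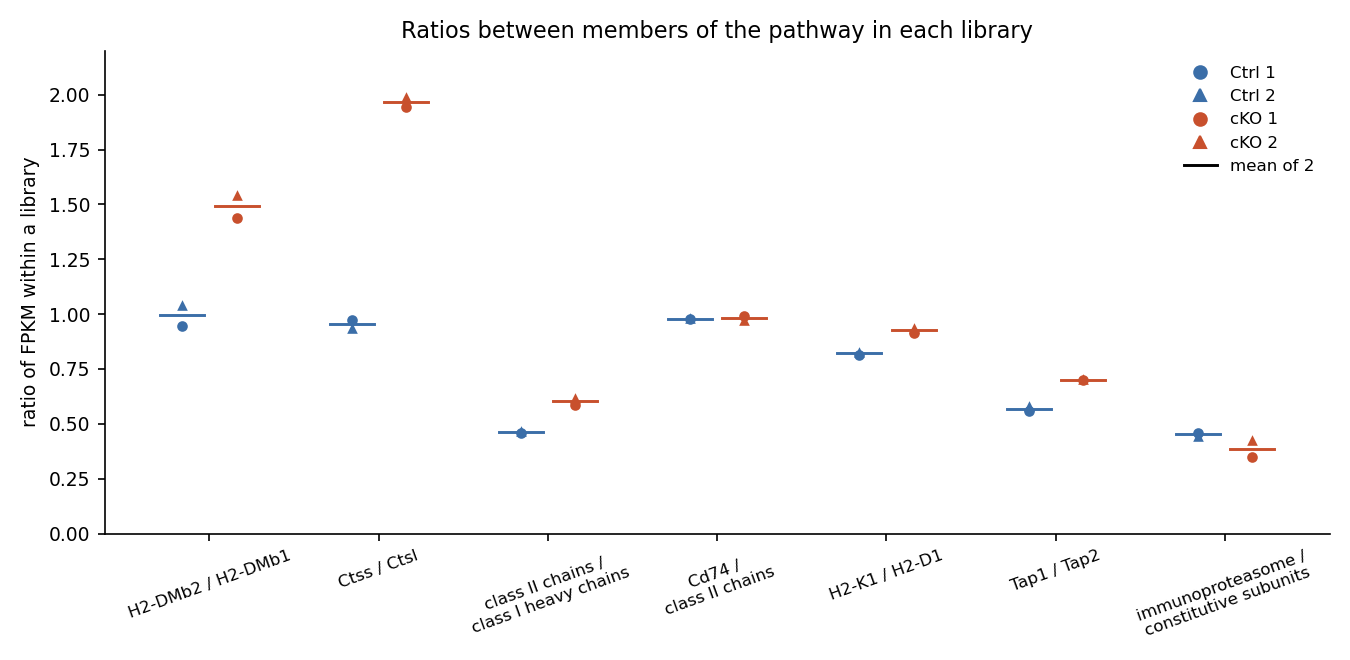
Ratio of FPKM within each of the 4 libraries (vertical axis, no unit) for 7 ratios, with the mean of 2 libraries as a bar. *Ctss* to *Ctsl* and *H2-DMb2* to *H2-DMb1* stand near 1 in Ctrl and above 1.4 in cKO, while *Cd74* to the class II chains lies between 0.975 and 0.990 in all 4 libraries.

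Set against each other, the summed A and E chains of class II came to 0.460 and 0.466 of the summed class I heavy chains in Ctrl and to 0.585 and 0.620 in cKO, a 1.3-fold difference larger than the spread within either genotype. The exact two-sided permutation test again gave its smallest value of 0.333.

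The 10 members that did not pass the filter were all at 0.74 FPKM or less in every library. *H2-Q2*, at 0.45 to 0.74 FPKM, was the highest of them. The others were *H2-L*, *H2-Q1*, *H2-M1*, *H2-M5*, *H2-M11*, *H2-T3*, *H2-T9*, *H2-Bl* and *H2-Ea-ps*, and each but *H2-Q1* was listed at 0 in at least 1 library. *H2-Ke6*, an enzyme gene of the region, had 74.8 and 72.0 FPKM in Ctrl and 89.2 and 79.8 in cKO and did not pass (adjusted p = 0.0756 by limma), but passed with a mean of at least 5 FPKM and without cKO 2. It shares 70.5% of its 50-base stretches with *Gm20427*.

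Other genes of the class II pathway were called in both directions. Of 14 genes tested, 4 were called higher (28.6%) and 2 lower (14.3%), against 12.0% and 13.8% of all genes tested. Their median log2 fold change was 0.08. *Ifi30*, the reductase that opens disulfide bonds of antigens in endosomes, rose from 61.6 and 59.8 FPKM to 87.0 and 94.0 (log2 fold change 0.57, adjusted p = 0.00122 by limma). *Lgmn*, an asparagine-specific endosomal protease, rose from 57.6 and 50.3 FPKM to 83.8 and 72.1 (log2 fold change 0.52, adjusted p = 0.00719 by limma). With *Ctss*, these were the endosomal enzymes called higher, whereas *Ctsl* was called lower (log2 fold change -0.34, adjusted p = 0.00511 by limma). *Cd40*, the receptor by which T cells activate antigen-presenting cells, rose from 6.65 and 7.01 FPKM to 8.15 and 9.31. Of the factors that bind the promoter module, *Nfya* was called higher (log2 fold change 0.28) and *Rfxap* lower (-0.28), with adjusted p-values of 0.0317 and 0.0457 by limma.

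Of 12 further genes of the class I pathway tested, 1 was called higher (*Psmb5*) and 2 lower, and the median log2 fold change was 0.04. These shares of 8.33% and 16.7% stood beside 12.0% and 13.8% of all genes tested. *Mr1*, a class I-like molecule that presents vitamin B metabolites to MAIT cells, fell from 23.8 and 24.3 FPKM to 12.8 and 13.0, a log2 fold change of -0.85 (adjusted p = 0.000318 by limma). *Erap1*, the aminopeptidase that trims peptides for class I, fell from 19.0 and 19.9 FPKM to 14.3 and 16.4 (log2 fold change -0.33, adjusted p = 0.0236 by limma). *Cd1d1* and *Mr1*, both presenters of non-peptide antigens, were thus called lower.

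Interferon gamma is the best known inducer of both classes. *Ifng* itself did not pass the filter, with 0.18 and 0.23 FPKM in Ctrl and 0.20 and 0.44 in cKO. Of the 12 genes of its axis tested, 2 were called higher and 3 lower, against 12.0% and 13.8% of all genes tested. Their median log2 fold change was 0.08. The chemokine gene *Cxcl10* rose from 3.49 and 2.95 FPKM to 9.85 and 8.80, while *Cxcl9*, another interferon-induced chemokine gene, fell from 16.2 and 16.2 FPKM to 10.1 and 11.9, log2 fold changes of 1.29 and -0.52 with adjusted p-values of 0.000389 and 0.00499 by limma. *Irf8*, a transcription factor of B and myeloid cells, rose from 26.3 and 27.8 FPKM to 35.8 and 41.5 (log2 fold change 0.50, adjusted p = 0.00516 by limma). *Ifngr1*, a chain of the receptor, fell by 0.38 on the log2 scale and *Gbp2* by 0.23 (adjusted p = 0.0229 and 0.0297 by limma).

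Markers of lymphocytes were higher in cKO, as were the class II genes. Of 10 B cell markers, 9 were called higher (90.0%, against 12.0% of all genes tested), and their median log2 fold change was 0.52. Their summed FPKM was 268 and 304 in Ctrl and 412 and 466 in cKO. *Cd79a* stood at 88.8 and 101 FPKM in Ctrl and at 147 and 167 in cKO, and *Ms4a1* at 25.4 and 30.7 in Ctrl and 40.7 and 47.5 in cKO. Of 9 T cell markers, 8 were called higher (88.9%), among them *Cd3e* (9.42 and 11.4 FPKM in Ctrl, 14.4 and 17.0 in cKO). The T cell sum went from 123 and 127 FPKM to 171 and 223. Both sums were highest in cKO 2, as were the class II genes and the dendritic cell and the neutrophil and monocyte sums. The order of the Ctrl libraries was not shared. Both lymphocyte sums were higher in Ctrl 2, but the class II sum was lower there, at 2597 FPKM in Ctrl 1 and 2494 in Ctrl 2. Only 3 of the 12 class II members tested were higher in Ctrl 2 than in Ctrl 1. None of the defining B cell markers was at 0 in any library. Their part in the class II result was not tested, nor was that of any lymph node tissue dissected with the depot.

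Dendritic cell and macrophage markers were called in both directions. Of 9 dendritic cell markers, 2 were called higher (22.2%) and 1 lower (11.1%), against 12.0% and 13.8% of all genes tested. *Itgax* rose from 2.55 and 2.60 FPKM to 3.49 and 4.43 (log2 fold change 0.47, adjusted p = 0.0243 by limma), whereas *Flt3* at 2.59 to 4.08 FPKM and *Zbtb46* at 4.02 to 4.69 FPKM did not pass. *Ccr7* rose from 16.6 and 17.1 FPKM to 25.2 and 32.3 (log2 fold change 0.73, adjusted p = 0.00377 by limma). *Cd209a* fell from 12.2 and 12.3 FPKM to 6.54 and 7.18 (log2 fold change -0.75, adjusted p = 0.000845 by limma). The dendritic sum was 53.8 and 53.3 FPKM in Ctrl and 56.1 and 67.8 in cKO. Of 10 macrophage markers, 1 was called higher and 5 lower, and the median log2 fold change was -0.25. *Csf1r* fell from 50.6 and 45.4 FPKM to 38.9 and 40.3 (log2 fold change -0.27, adjusted p = 0.0278 by limma), and *Adgre1* had 17.4 and 14.4 FPKM in Ctrl and 14.3 and 13.4 in cKO. *Cd68*, the 1 called higher, rose from 43.0 and 36.3 FPKM to 71.9 and 61.4 (log2 fold change 0.73, adjusted p = 0.00281 by limma). *Cd163* and *Mrc1* were called lower, with log2 fold changes of -1.10 and -0.72 (adjusted p = 0.0004 and 0.00131 by limma). The macrophage sum overlapped between the genotypes, at 1352 and 1171 FPKM in Ctrl and 1195 and 1209 in cKO. Of 6 neutrophil and monocyte markers tested, 5 were called higher (83.3%). Their sum went from 46.1 and 43.8 FPKM to 73.9 and 76.5, with *Ly6g* listed at 0.06 FPKM or less. Of 5 endothelial markers, 3 were called lower.

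**Figure D5:**
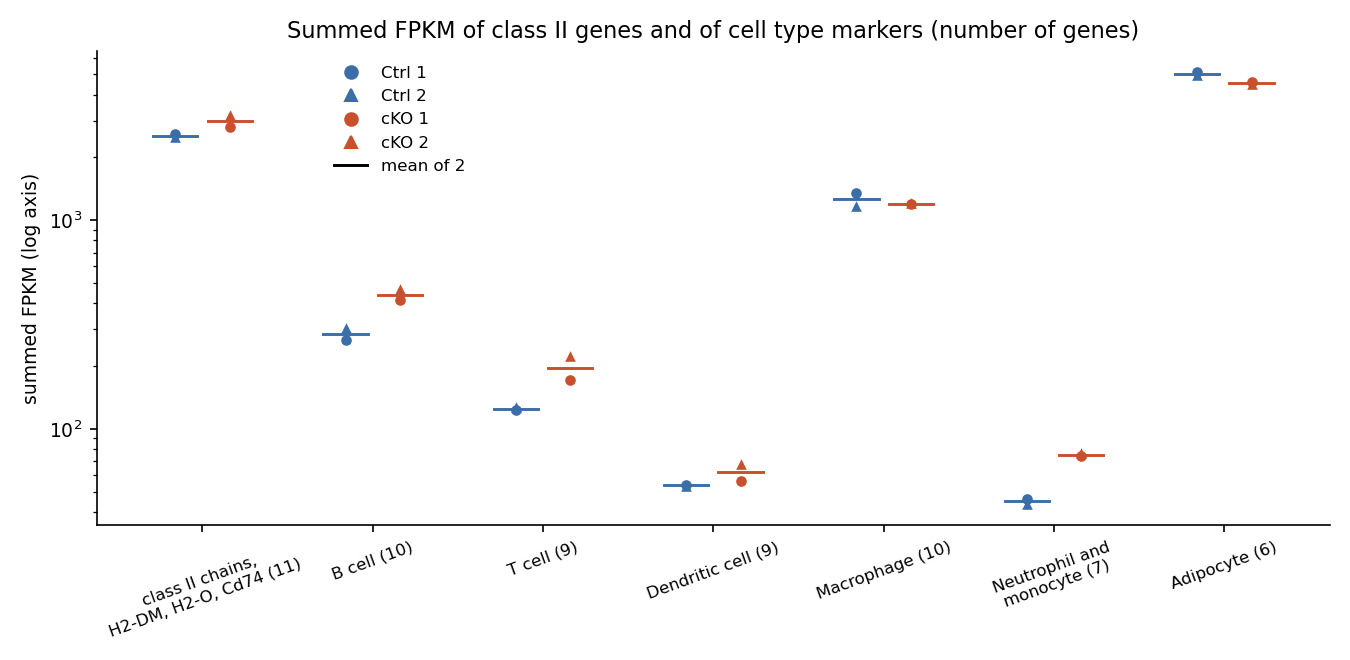
Summed FPKM (log axis) of the class II chains, H2-DM, H2-O and *Cd74* and of the marker lists of 6 cell types in each of the 4 ingWAT libraries, with the mean of 2 libraries as a bar and the number of genes in brackets. The class II, B cell, T cell, dendritic cell, and neutrophil and monocyte sums are higher in both cKO libraries and highest in cKO 2. The macrophage sums overlap, and *Lyz2* makes up a large part of them.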

How the data were processed

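Polyadenylated RNA from ingWAT was read as single ends of 50 bases on a BGISEQ-500, per the labels. The authors deposited FPKM per gene and library. The submitters' processing notes name HISAT2 2.0.4, RSEM 1.2.12 and mm10. Strand-specific counting is not given in the sources used here.

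The groups came from the labels (Ctrl and cKO, 2 libraries each). The members and gene lists were chosen with earlier results of these data known. Genes with a mean of at least 1 FPKM were compared on log2(FPKM + 1) by limma 3.58.1 (R 4.3.3; trended eBayes), and p-values were adjusted over 12658 genes by Benjamini-Hochberg. In simulated data of 12658 genes, 174 of 200 changed genes were called, with 8 false calls. Each change put in was larger than that of any member tested, and low genes were left unchanged. The share recovered at the sizes seen in the members was therefore not tested. All members were accounted for, and those that passed the filter are described with their FPKM. From the lists of other pathway genes, those called are named, at most 6 a list by the size of the log2 fold change. Of the cell type markers, 10 defining ones are named, with some others of their lists. Sums and ratios were tested by exact permutation of the 4 libraries.

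The number of reads per library was estimated from short RNA genes, whose FPKM move in whole-read steps, and of these values 82.1% to 85.3% came out whole within 0.1 reads. Whole reads were not recovered for genes in general, so no count test was run. Of the 49 members, 47 matched the RefSeq gene table. Stretches of 50 bases shared between genes came from GENCODE M21 transcripts, which held none named *H2-Q8* or *H2-Q9*. Python 3.11.15, pandas 2.3.3, numpy 2.4.6 and matplotlib 3.10.9 were used. The alternatives changed the pseudocount (0.1), the filter (none, or a mean of at least 5 FPKM), the scaling (median of ratios, or quantile), the model (eBayes with no trend, or a replicate block) and the libraries (each left out in turn).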

Additional observations from a re-analysis of the deposited data

How the results depend on the processing

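Of the 13 members called, all kept their sign under the 11 alternatives run, 4 kept their call under every one (*Ctss*, *H2-DMb2*, *Cd1d1* and *H2-Q7*), and 7 kept it under the alternatives that leave no library out. The class II count of 6 was 3 with no filter and 10 under median-of-ratios scaling, and 2 to 8 with a library left out. The class I count of 7 was 4 with no filter, and 2 to 6 with a library left out. The count of all genes called was 3269, and it was 1762 with no filter, which tests 19030 genes, and 787 to 2340 with a library left out. The median log2 fold change of class II was 0.20 to 0.37 with a library left out, and that of class I -0.090 to 0.020. The log2 ratio of summed class II was 0.14 to 0.32, that of summed class I heavy chains -0.22 to -0.11 and that of immunoproteasome to constitutive subunits -0.37 to -0.093. Taken as the mean of log2(FPKM + 1) over the genes, the class I heavy chain ratio was -0.037, and the cause was not tested.

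Of the members that were not called, 9 changed sign under an alternative. *H2-Aa* was at -0.050 under quantile normalization, and *Tap2* at 0.0039 under median-of-ratios scaling and 0.0053 under quantile normalization. With a library left out, log2 fold changes ranged from -0.058 to 0.16 for *H2-K2*, -0.15 to 0.012 for *Psmb9*, -0.25 to 0.0054 for *H2-Q4*, -0.31 to 0.091 for *H2-Q6*, -0.14 to 0.028 for *H2-M3*, -0.18 to 0.00063 for *H2-T10*, -0.056 to 0.031 for *Tap2* and -0.087 to 0.20 for *Nlrc5*.

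With the replicate number as a block, 7 class II and 5 class I members were called, and 3383 of all genes; *Ciita* (adjusted p = 0.0249 by limma) and *H2-Eb2* (0.0381) passed, and *H2-Ab1* (0.0889), *H2-D1* (0.128) and *H2-T24* (0.0532) were lost. Libraries of the same number did not deviate together over the genes tested (correlation of deviations 0.0148). The methods do not state that the numbers pair the libraries, and this correlation alone cannot exclude it. With 2 libraries a genotype, small differences of single members could not be resolved. Where leaving out a library left 1 in a genotype, that library was assumed to vary like the others.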
